A study of Rattus norvegicus with 4 samples.

Results

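Prostaglandins are lipid signals made from arachidonic acid. A phospholipase or a monoacylglycerol lipase frees the fatty acid, a cyclooxygenase turns it into the unstable intermediate prostaglandin H, and a terminal synthase then decides which prostanoid is formed. In the brain, astrocytes, microglia, meningeal cells and endothelial cells are all known to carry out steps of this pathway. The mRNAs of 8 enzymes of the pathway were followed in co-cultured astrocytes: the cyclooxygenases Ptgs1 (COX-1) and Ptgs2 (COX-2), the lipocalin-type prostaglandin D synthase Ptgds, the prostaglandin E synthases Ptges, Ptges2 and Ptges3, the prostacyclin synthase Ptgis and the thromboxane synthase Tbxas1. A probe belonged to the set when the array named it with one of these symbols or with a RefSeq transcript of one of them. This gave 8 probes of 41012 and 7 of the 8 genes, since no probe matched Ptges3. All 7 genes had a probe among the 24865 kept, which means that 1 RNA or more had it well above background on all of its arrays, and they stood among 21361 genes tested. The set was chosen by the measured values of these same arrays, with Ptgs1 set against the other enzymes in all 3 comparisons, so that the members' values are given as a description and without a test.

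The RNA came from rat cortical astrocytes of Wistar pups (P1), first grown in DMEM with serum. In the co-culture (CC), hippocampal neurons of mouse embryos (E18) had been plated on the astrocyte layer in supplemented Neurobasal medium. Cold jet, a stream of ice-cold PBS that detaches neurons, was then applied to give CC-CJ. The third RNA, AA-CJ, was from astrocytes that had been cultured without neurons and given the same cold jet. The study describes their culture conditions as similar to those of the co-culture. CC received no cold jet, and every culture contained the astrocytes. No transgene, drug or deletion was used. Each of the 4 arrays compared CC-CJ in Cy3 with another RNA in Cy5, which was AA-CJ on 2 arrays and CC on the other two. The log2 ratio of the 2 dyes, the M value, is positive where CC-CJ was higher. There was no dye swap, and within an array the dye and the condition cannot be told apart. The difference between the 2 kinds of array gives CC versus AA-CJ, both in Cy5, which is free of a dye effect shared by all arrays. This difference, called one with 1 dye below, is taken between M values. The CC-CJ channels therefore enter it, and it can depart from the difference of the Cy5 levels. The study's methods state that replicates came from separate pools of animals, which the sample labels do not say. They leave unsaid whether the CC-CJ RNA on the arrays with CC was the same as that on the arrays with AA-CJ. Deviations of the CC-CJ level from its mean over arrays correlated, across probes, at 0.123 and -0.025 between arrays of the same replicate number and at -0.362 to -0.632 between the others. Such deviations tend below 0 by construction. The 4 channels of CC-CJ may therefore hold fewer than 4 samples, and an SD over them is one over arrays. Neuronal mRNA in CC, and what cold jet left of it in CC-CJ, is mouse RNA read by rat probes. Rat and mouse RNA were not told apart here. In bulk RNA, fewer cells of a type and less RNA per cell cannot be told apart.

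Each channel had between 50.1% and 62.6% of its probes well above background. All 12 astrocyte markers were measured, among them Gfap, Slc1a3 and Aldh1l1. Of 12 neuron markers tested, limma called 8 with lower signal after cold jet (CC-CJ versus CC), such as Gap43 (-2.76) and Mapt (-2.87), and 5 with higher signal in CC-CJ versus AA-CJ, such as Gap43 (2.03). CC-CJ, labelled as astrocytes purified by cold jet, thus read above AA-CJ at these 5 markers, in a comparison across dyes. Among them, Dcx, Elavl4 and L1cam were not well above background on all arrays of AA-CJ. The other markers were not called, and some lay below 0, such as Stmn2 (-0.27) and Nefl (-0.19). The summed signal of the neuron probes was 8580 to 8970 in CC-CJ, 8880 to 9490 in AA-CJ and 22600 to 24100 in CC. Of the 8 called lower after cold jet, Snap25 was well above background on all arrays of CC alone. Over all genes, limma called 483 lower and 21 higher in CC-CJ versus CC, and 415 higher and 247 lower in CC-CJ versus AA-CJ. Of 16 microglia markers, 10 were tested. Itgam, Cx3cr1, P2ry12 and Spi1 were not well above background in all arrays of any RNA, and Ptprc and Fcer1g had no probe.

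The stretch upstream of the start is shown for both cyclooxygenases, which catalyse the same step, and for Ptgds and Ptges, the synthases with the largest M values of the set in either direction. RefSeq promoters on GRCr8 were matched for 6 of the 8 genes, not for Ptges2 and Ptgis. The 250 bases before the start are given 5′ to 3′, and capitals mark matches, on either strand, to the TATA box TATAAA, the CCAAT box, the GC box GGGCGG, the core CGTCA of cAMP response elements, or the E-box CACGTG.
Ptgs1 promoter, chr3:39981169-39981418, plus strand: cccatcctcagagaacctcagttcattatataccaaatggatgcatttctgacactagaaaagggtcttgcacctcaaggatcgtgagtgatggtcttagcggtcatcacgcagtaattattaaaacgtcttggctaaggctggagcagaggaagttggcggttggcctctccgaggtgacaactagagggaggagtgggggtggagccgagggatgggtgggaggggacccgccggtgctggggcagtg
Ptgs2 promoter, chr13:64713813-64714062, plus strand: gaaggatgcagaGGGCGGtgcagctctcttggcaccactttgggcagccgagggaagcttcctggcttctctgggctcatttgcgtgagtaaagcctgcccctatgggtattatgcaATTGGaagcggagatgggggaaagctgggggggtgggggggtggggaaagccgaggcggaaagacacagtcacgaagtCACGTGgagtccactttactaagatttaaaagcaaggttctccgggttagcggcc
Ptgds promoter, chr3:28682979-28683228, minus strand: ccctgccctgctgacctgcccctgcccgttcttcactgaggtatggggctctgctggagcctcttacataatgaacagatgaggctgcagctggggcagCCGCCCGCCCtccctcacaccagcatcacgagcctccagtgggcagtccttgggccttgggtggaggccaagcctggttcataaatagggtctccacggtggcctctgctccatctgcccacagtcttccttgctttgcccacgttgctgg
Ptges promoter, chr3:34586988-34587237, minus strand: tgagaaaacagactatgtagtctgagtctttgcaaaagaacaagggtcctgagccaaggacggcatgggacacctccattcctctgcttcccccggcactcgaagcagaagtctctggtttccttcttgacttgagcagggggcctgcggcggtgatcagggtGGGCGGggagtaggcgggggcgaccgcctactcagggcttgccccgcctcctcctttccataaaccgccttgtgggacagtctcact
The Ptgs1 stretch held none of the 5 motifs. The Ptgs2 stretch held 1 GC box, 1 CCAAT box and 1 E-box, a motif found in 5.59% of 33469 rat promoters of the same length. The Ptgds stretch held 2 overlapping matches to GGGCGG and the Ptges stretch held 1, a motif present in 30.5% of promoters. CCAAT was present in 34.0%, CGTCA in 18.2% and TATAAA in 12.9% of promoters. The arrays measured mRNA and not these stretches, and a match is a description of letters only.

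Ptgs1, the constitutive cyclooxygenase, had, after loess, a positive M value on all 4 arrays and was the only member that did. Without loess, and relative to the median of all genes, its mean was turned against AA-CJ and not against CC. Its probe lies at rn4 chr3:15365115-15365174 and was printed as 10 spots. Against AA-CJ its M values were 0.40 and 0.45. Against CC they were 0.52 and 0.74. The 2 pairs of arrays did not overlap, and the arrays with CC were the higher ones. All 9 spots kept on each array were above 0, and their SD within an array was 0.027 to 0.043, which measures the repeat spots and not the cultures. The mean was 0.42 for CC-CJ versus AA-CJ (SE 0.0901, n = 2 arrays), 1.34-fold, and 0.63 for CC-CJ versus CC (SE 0.0901, n = 2), 1.55-fold. These SEs, as all SEs of members below, are limma's and share 1 spread over the 4 arrays.

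In levels, the log2 signal of Ptgs1 was 9.76 ± 0.04 in CC-CJ (SD, n = 4 arrays), 9.37 ± 0.04 in AA-CJ (n = 2) and 9.09 ± 0.15 in CC (n = 2). In CC-CJ it was 9.79 and 9.79 on the arrays with AA-CJ and 9.71 and 9.73 on the arrays with CC. In AA-CJ it was 9.40 and 9.34, and in CC it was 9.19 and 8.98. The order was therefore CC-CJ, AA-CJ, CC, and no value of one RNA reached into the next. CC-CJ is also the RNA that was read in Cy3, and for its place at the top the dye and the condition cannot be told apart. With both RNAs in Cy5, Ptgs1 was -0.21 in CC versus AA-CJ (SE 0.127). The M value of Ptgs1 depended on the normalization within the array. Without loess, each array was centred on its median and no trend with intensity was removed. Ptgs1 was then -0.62 against AA-CJ and -0.41 against CC, while the median of all genes was -0.48 and -0.59. Relative to that median Ptgs1 was then -0.13 and 0.18, compared with 0.44 and 0.65 with loess. Its value in CC versus AA-CJ was -0.20 without loess, close to that with it. Agilent's log ratio gave 0.48 against AA-CJ, 0.79 against CC and -0.31 in CC versus AA-CJ, and the deposited processed ratios gave 0.42, 0.75 and -0.33.

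**Figure D1:**
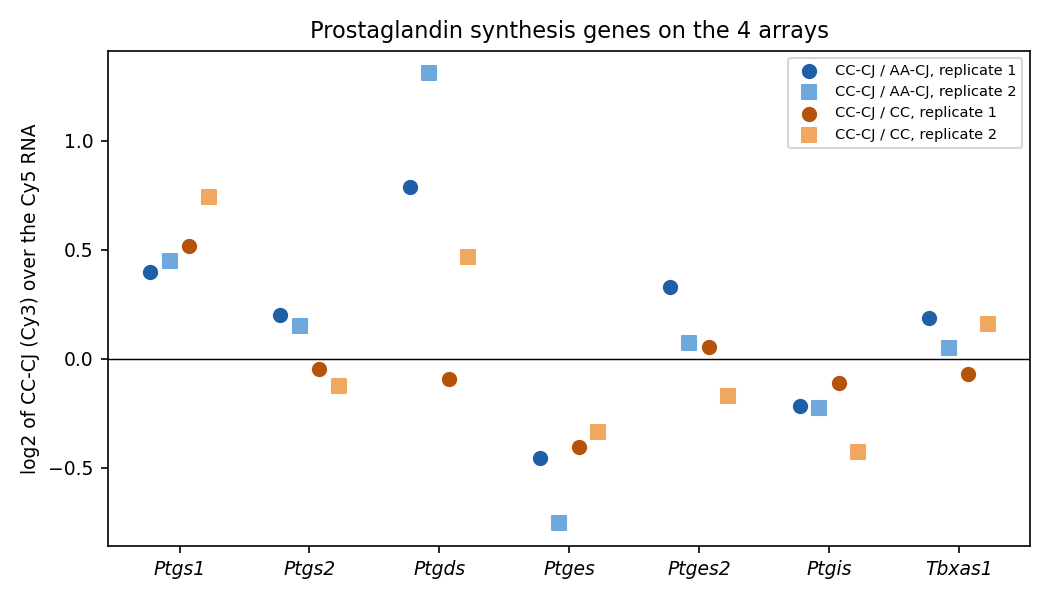
M value (log2 of CC-CJ in Cy3 over the RNA in Cy5) of the 7 measured prostaglandin synthesis genes, 1 point per array, blue for the arrays with AA-CJ and orange for those with CC. After loess, as drawn, Ptgs1 lies between 0.40 and 0.74 on all 4 arrays, Ptges lies below 0 on all 4, and Ptgds reaches 1.31 against AA-CJ.

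Ptgs2, the inducible cyclooxygenase that rises with inflammation and synaptic activity in other systems, was close to background. Its probe at rn4 chr13:64434457-64434516 was also printed as 10 spots. In CC-CJ, 6 and 4 of them were well above background on the arrays with AA-CJ, and 8 and 1 on those with CC. In AA-CJ the numbers were 3 and 0, whereas in CC all 10 spots were well above background on both arrays. It was therefore kept for its signal in CC. A second probe (chr13:64430899-64431083) was not well above background on any array and was left out. The M values of Ptgs2 were 0.20 and 0.15 against AA-CJ, and -0.05 and -0.13 against CC. Single spots ran from -0.11 to 0.33 and from -0.01 to 0.29 in the first pair, and from -0.21 to 0.20 and from -0.28 to -0.03 in the second. Spots of Ptgs2 thus spread more within an array than those of Ptgs1.

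The log2 signal of Ptgs2 was 6.55 ± 0.02 in CC (n = 2), 6.46 ± 0.07 in CC-CJ (n = 4) and 6.27 ± 0.04 in AA-CJ (n = 2). All values in AA-CJ were below all others. Since AA-CJ was not well above background, no exact fold could be set. From mean signals, Ptgs2 was 1.14-fold higher in CC-CJ, where 2 of 4 arrays measured it, and 1.22-fold higher in CC. The M values gave 1.13-fold and 1.2-fold, so that the ratios of signals are not lower bounds. Such a ratio takes the mean of the brighter RNA over that of the dim one. The dim signal was raised to the lowest signal among probes well above background where it lay below. The ratio for CC-CJ compares different dyes and is open to dye bias. The value of Ptgs2 depended on the processing: against AA-CJ it was 0.005 when its second probe was averaged in and 0.95 with Agilent's log ratio, and in CC versus AA-CJ it was 0.015 and 1.28.

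**Figure D2:**
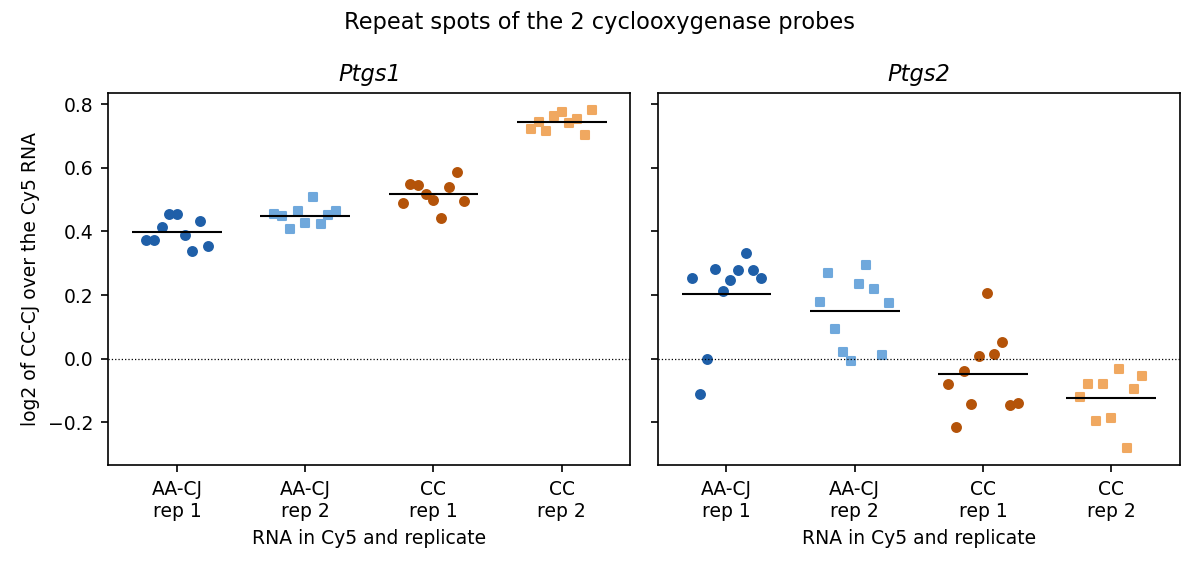
M value of each repeat spot of the Ptgs1 and Ptgs2 probes, by array, with spots marked as outliers left out and the black line at the mean. The 9 Ptgs1 spots lie above 0 on every array, whereas Ptgs2 spots lie on both sides of 0 on 3 of the arrays and below it on the array of CC replicate 2.

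Ptgds makes prostaglandin D and is also secreted as a carrier of lipophilic molecules. It had the largest M values of the set. Against AA-CJ, its probe (rn4 chr3:3633310-3633779) gave 0.79 and 1.31, with a mean of 1.05 (SE 0.167), 2.07-fold. Against CC it gave -0.09 and 0.47, with a mean of 0.19. Those 2 arrays had different signs. The log2 signal was 6.98 ± 0.09 in AA-CJ (n = 2), 7.93 ± 0.02 in CC (n = 2) and 8.08 ± 0.27 in CC-CJ (n = 4). The CC-CJ signals were 7.83 and 8.23 on the arrays with AA-CJ, and 7.86 and 8.38 on those with CC, and so lay on both sides of CC. All values in AA-CJ were below them. In CC versus AA-CJ, with 1 dye, Ptgds was 0.86 (SE 0.236). Agilent's log ratio gave larger values for Ptgds, 1.70 against AA-CJ and 1.33 in CC versus AA-CJ. Its direction against AA-CJ was the same without loess, at 0.53, and 1.01 relative to the median of all genes.

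Of the enzymes that make prostaglandin E, the inducible Ptges was lower in CC-CJ on all 4 arrays. Its M values were -0.45 and -0.75 against AA-CJ (mean -0.60, SE 0.0984, 0.658-fold) and -0.41 and -0.34 against CC (mean -0.37, SE 0.0984, 0.774-fold). The log2 signal of Ptges was 7.85 ± 0.04 in AA-CJ (n = 2), 7.44 ± 0.25 in CC (n = 2) and 7.16 ± 0.18 in CC-CJ (n = 4). The CC-CJ signals, from 6.93 to 7.37, overlapped those of CC, which were 7.26 and 7.61, and lay below those of AA-CJ, which were 7.82 and 7.89. With 1 dye, Ptges was -0.23 in CC versus AA-CJ (SE 0.139), while its mean Cy5 levels, 7.44 and 7.85, lay further apart. With Agilent's log ratio, Ptges was -1.20 against AA-CJ and -0.76 against CC. Ptges is a membrane protein that is usually coupled to Ptgs2, which was too close to background in AA-CJ for its value to be set beside that of Ptges.

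Ptges2, a second membrane-associated prostaglandin E synthase, varied between arrays of CC-CJ more than between RNAs. Its M values were 0.33 and 0.07 against AA-CJ, and 0.05 and -0.17 against CC. The log2 signal was 7.71 ± 0.15 in CC-CJ (n = 4), 7.69 ± 0.03 in CC (n = 2) and 7.58 ± 0.02 in AA-CJ (n = 2). The CC-CJ signals, from 7.55 to 7.90, enclosed those of both other RNAs. With 1 dye, the difference was 0.26 in CC versus AA-CJ (SE 0.144).

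Ptgis, which makes prostacyclin and is best known from vessel walls, had M values of -0.22 and -0.23 against AA-CJ and of -0.11 and -0.43 against CC. Its log2 signal was 9.52 ± 0.10 in CC-CJ (n = 4), 9.73 ± 0.16 in AA-CJ (n = 2) and 9.79 ± 0.16 in CC (n = 2). The CC-CJ values ran from 9.39 to 9.63 and overlapped those of AA-CJ, 9.61 and 9.84, but not those of CC, 9.68 and 9.91. With 1 dye the difference was 0.05 (SE 0.14). Thus Ptgis, like Ptgs1 and Ptges, had 1 sign in all comparisons of Cy3 with Cy5, and for this sign the dye and the condition cannot be told apart.

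Tbxas1 converts prostaglandin H to thromboxane and is known from platelets and macrophages. Its M values were 0.19 and 0.05 against AA-CJ, and -0.07 and 0.16 against CC. In levels, Tbxas1 ranged from 7.20 to 7.45 in CC-CJ, was 7.02 and 7.40 in AA-CJ, and was 7.37 and 7.23 in CC. The 3 RNAs overlapped. Their means were 7.34 ± 0.11 (SD, n = 4), 7.21 ± 0.27 (n = 2) and 7.30 ± 0.10 (n = 2), and the difference with 1 dye was 0.07 (SE 0.132).

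**Figure D3:**
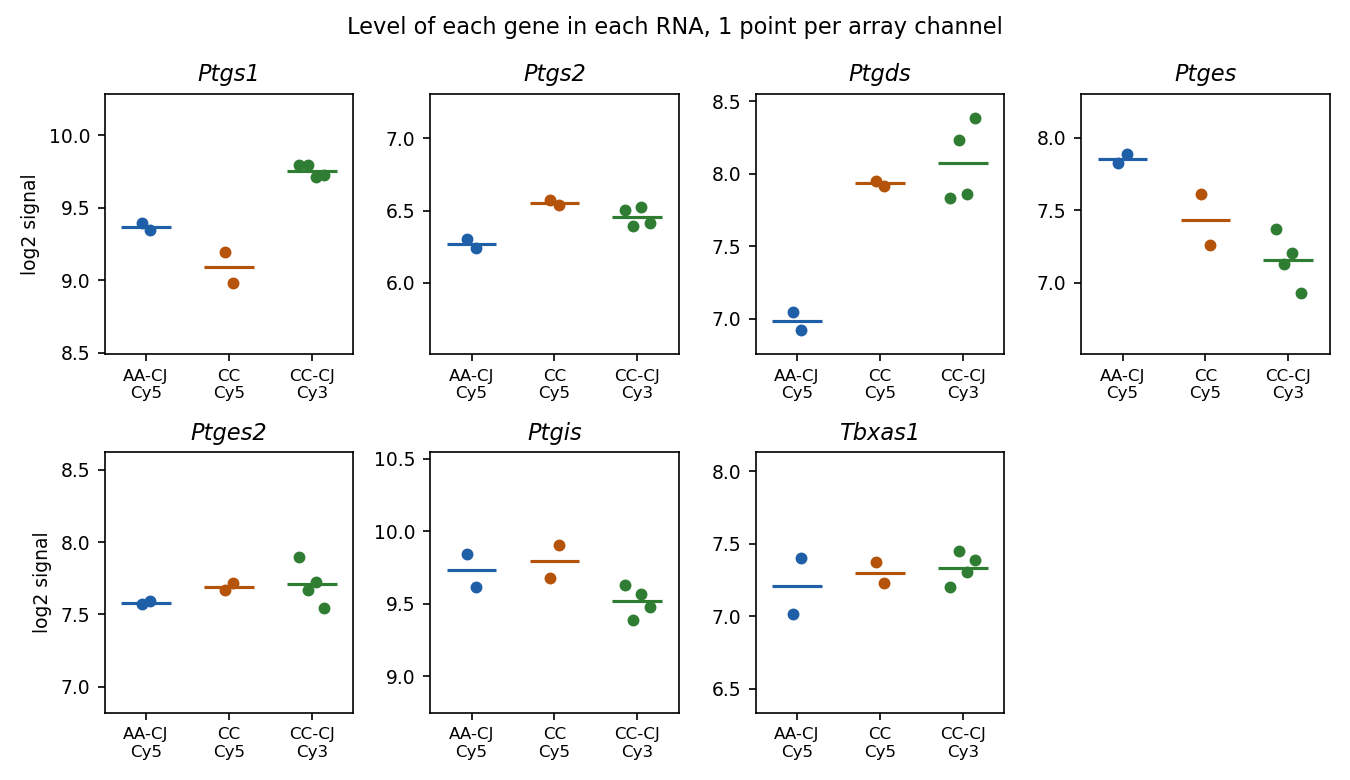
Normalised log2 signal of each measured gene in the 3 RNAs, 1 point per array channel and a line at the mean; each panel spans the same range of log2 units, and levels of different genes are not comparable. Ptgs1 is highest in CC-CJ, Ptgds is lowest in AA-CJ, and the 3 RNAs overlap for Tbxas1.

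Set against the other 6 enzymes, Ptgs1 stood above their median M by 0.20 and 0.39 on the arrays with AA-CJ and by 0.60 and 0.89 on those with CC. Against AA-CJ, Ptgds was above Ptgs1 on both arrays, and no other enzyme was. With Agilent's log ratio, the mean of Ptgs2 (0.95, near background) was also above that of Ptgs1 (0.48) against AA-CJ. Against CC, no enzyme was above Ptgs1 on either array. The highest of the others was 0.05 on the first of those arrays, which was Ptges2, and 0.47 on the second, which was Ptgds. In CC versus AA-CJ the place of Ptgs1 was turned: at -0.21 it lay beside Ptges (-0.23), while the 4 other enzymes measured in both RNAs ran from 0.05 for Ptgis to 0.86 for Ptgds. Without loess, Ptgs1 (-0.62 against AA-CJ) lay below Ptgds (0.53), Ptgs2 (0.33, near background), Tbxas1 (-0.28) and Ptges2 (-0.40), and against CC (-0.41) only Ptgs2 (-0.01) lay above it. This setting removes no trend with intensity, and all the enzymes above Ptgs1 had lower signals than it. Ptgis, whose signal was nearest to that of Ptgs1, lay below it, at -1.27 against AA-CJ and -1.34 against CC. Relative to the median of all genes, which this setting moved, Ptges2 and Tbxas1 were 0.09 and 0.20 against AA-CJ. Ptgs1 was chosen for its place among the enzymes, and the values carry no test.

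**Figure D4:**
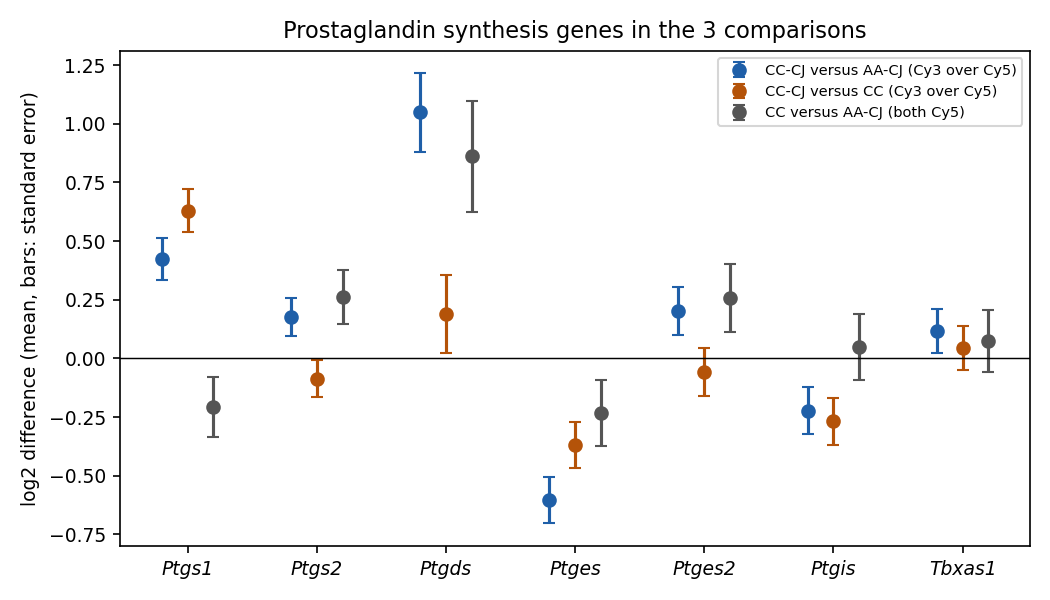
Mean log2 difference of each gene in the 3 comparisons, with limma's standard error as bars; CC versus AA-CJ compares RNAs in the same dye, and Ptgs2 was not well above background in AA-CJ. After loess, Ptgs1 is at 0.42 and 0.63 in the comparisons across dyes and at -0.21 in CC versus AA-CJ, a difference of M values.

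Across all genes, limma with an adjusted p under 0.05 called 3.1% of genes in CC-CJ versus AA-CJ, 2.36% in CC-CJ versus CC and 2.66% in CC versus AA-CJ. At an unadjusted p under 0.05, 4832, 3616 and 3796 of the 21361 genes passed, in this order. Of the 7 members limma called Ptgds and Ptges in the first comparison, Ptgs1 in the second and 0 in the third, where 1 passed at an unadjusted p under 0.05. Since the members were chosen on these comparisons, nothing is read from these counts. They also depended on the fit. With Agilent's log ratio, no member was called. The same held with eBayes set to both a robust prior and a trend of the spread with the mean M value, not with intensity. With median centring 6 of the 7 were called in each comparison of CC-CJ, where 13234 and 14330 of all 21361 genes were called too. Without either replicate of AA-CJ, Ptgds and Ptges were not called, and without CC replicate 2, Ptgs1 was not called against CC. Ptgs1 was called against AA-CJ with only the 2 arrays of that comparison, and with a crossed block that was added after seeing the data. Leaving out either CC array gave the same fit for that comparison as its 2 arrays alone, and is not a separate setting. The study selected probes whose M lay at least 2 SD from the mean on both replicates. With the M values used here, this rule took 1.64% of probes in CC-CJ versus AA-CJ, among them Ptgds, and 1.39% in CC-CJ versus CC, among them Ptgs1. Against AA-CJ, Ptgs1 was inside the limit of 0.473 on array 1 and beyond that of 0.431 on array 2. Ptges missed the lower limit on array 1, with -0.453 against -0.475.

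Of the probes of the 7 genes, 5 lay on rn4 chromosome 3, those of Ptgs1, Ptgds, Ptges, Ptges2 and Ptgis. Tbxas1 was on chromosome 4 and Ptgs2 on 13. The members on chromosome 3 included the highest and the lowest M value of the set. The genes whose M values over the 4 arrays lay closest to those of Ptgs1, among 8402 named genes, were Tst, which encodes the mitochondrial enzyme thiosulfate sulfurtransferase, at a Euclidean distance of 0.141, the stress-inducible Zfand2a at 0.228, the actin-binding Tagln at 0.28, the AMP deaminase Ampd3 at 0.294, and Hgd of tyrosine breakdown at 0.315. Tst, the nearest, had M values of 0.40 and 0.36 against AA-CJ and of 0.42 and 0.69 against CC. The distance is a description of 4 values.

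Other genes of the pathway were followed as a list of 32, of which 30 had a probe and 16 were tested. In CC-CJ versus AA-CJ limma called 0 of these 16 (5 at an unadjusted p under 0.05), with a median of 0.09 beside -0.02 over all genes. In CC-CJ versus CC it called 0 (3 unadjusted), with a median of 0.01 beside -0.02. In CC versus AA-CJ it called 1 higher and 0 lower (2 unadjusted), with a median of 0.06 beside 0.00. Over all 21361 genes, the unadjusted counts in these comparisons were 4832, 3616 and 3796, and nothing is read from those of the list. The 1 called was Mgll, the monoacylglycerol lipase that frees arachidonic acid from an endocannabinoid. Mgll was 0.69 higher in CC (SE 0.128, 1.61-fold, limma adjusted p = 0.0471). This call was lost in several other settings, with adjusted p from 0.0587 to 0.212 where it was lost. In CC-CJ, Mgll lay between the other RNAs, at 0.35 against AA-CJ (adjusted p = 0.0875) and -0.34 against CC (adjusted p = 0.133).

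No phospholipase passed the test in any of the 3 comparisons. Pla2g4a, the cytosolic phospholipase that serves both cyclooxygenases, was 0.08 against AA-CJ and 0.05 against CC (SE 0.105). Anxa1, an inhibitor of phospholipase activity, was 0.20 against AA-CJ (adjusted p = 0.221). The secreted Pla2g2a was not well above background in any RNA. Of the further prostaglandin-forming enzymes, Cbr1 was 0.22 against AA-CJ (adjusted p = 0.172), and the haematopoietic prostaglandin D synthase Hpgds was not well above background, so that Ptgds was the prostaglandin D synthase that could be measured.

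Of the 9 prostanoid receptors, only the prostacyclin receptor Ptgir and the thromboxane receptor Tbxa2r were tested. The receptors of prostaglandin E, D and F (Ptger1 to Ptger4, Ptgdr, Ptgdr2 and Ptgfr) were not well above background in all arrays of any RNA. Tbxa2r was 0.25 against AA-CJ (SE 0.0823, adjusted p = 0.135), where AA-CJ was not well above background, and Ptgir was well above background in AA-CJ and CC but not on all arrays of CC-CJ. Among genes of transport and breakdown, Hpgd, which inactivates prostaglandins, was 0.30 against CC (SE 0.114, adjusted p = 0.254) and -0.02 against AA-CJ. Ptgr2, a reductase of prostaglandin breakdown, was -0.27 against AA-CJ (adjusted p = 0.134). The transporter Slco2a1 was not well above background. In the lipoxygenase branch, 2 of 6 genes were tested: Lta4h was 0.15 against AA-CJ, Alox5ap was well above background in CC alone, and Alox5, Alox12, Alox15 and Ltc4s were not well above background.

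**Figure D5:**
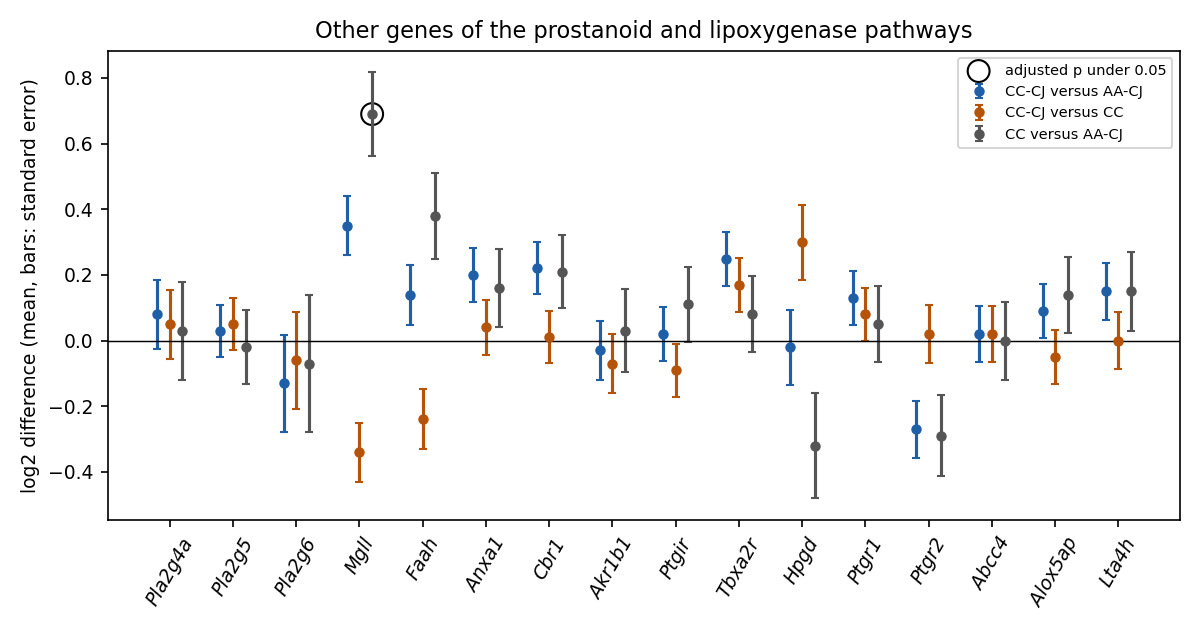
Mean log2 difference and limma standard error of the 16 tested pathway genes in the 3 comparisons; the ring marks an adjusted p under 0.05. Mgll in CC versus AA-CJ, at 0.69, is the point with a ring.

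Cell types known to express members were followed by their markers. Of the 10 microglia markers tested, limma called 4 higher in CC-CJ versus AA-CJ, 6 lower in CC-CJ versus CC and 6 higher in CC versus AA-CJ. Over all 21361 genes, 415 were called higher and 247 lower in the first of these comparisons. The numbers were 21 and 483 in the second, and 551 and 17 in the third. Tyrobp was 0.77, -0.74 and 1.51 in these comparisons (adjusted p = 0.00956, 0.00546 and 0.00108). The summed signal of the microglia probes was 2650 to 3190 in CC-CJ, 2220 to 2430 in AA-CJ and 4770 to 4890 in CC. Ptgs1 and Tbxas1 are known from microglia. Against AA-CJ, where 4 markers were called higher and others had a mean below 0, such as Cd14 (-0.19) and Cd68 (-0.08), Ptgs1 was 0.42. Against CC, where 6 fell, Ptgs1 was 0.63, and in CC versus AA-CJ, where 6 rose, it was -0.21. Of those last 6, Aif1, C1qa and Trem2 were not well above background on all arrays of AA-CJ. C1qa and Trem2 were also among the 4 called higher in CC-CJ versus AA-CJ. Aif1, among the 6 lower in CC-CJ versus CC, was not well above background on all arrays of CC-CJ. The part of microglial RNA in the Ptgs1 values was not tested. After loess, the mean of Tbxas1 stayed within 0.12 in size in all 3 comparisons. Without loess it was -0.28 against AA-CJ and -0.46 against CC, or 0.20 and 0.13 relative to the median of all genes.

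Ptgds is known from meningeal cells and oligodendrocytes. Of 7 meningeal fibroblast markers tested, 0 were called in CC-CJ versus AA-CJ (1 unadjusted), 2 were lower in CC-CJ versus CC, and 1, Dcn, was higher in CC than in AA-CJ (0.66, adjusted p = 0.042). Their summed signal was 195000 to 218000 in AA-CJ, 256000 to 267000 in CC and 188000 to 211000 in CC-CJ. Lum, Slc6a13 and Aldh1a2 were not well above background, and Foxc1 had no probe. Of 8 oligodendrocyte markers tested, 0 were called in CC-CJ versus AA-CJ (1 unadjusted), 2 were lower in CC-CJ versus CC and 1, Mag, was higher in CC than in AA-CJ. Mag was well above background on all arrays of CC alone, the RNA through which it was kept. Sox10, the other marker called lower, was not well above background on all arrays of CC-CJ. Sums of the oligodendrocyte probes were 1630 to 1700 in AA-CJ, 1710 to 1820 in CC-CJ and 1790 to 2130 in CC, in which AA-CJ was also lowest. Over all genes, calls in CC-CJ versus CC were also mostly lower, and those in CC versus AA-CJ mostly higher. Olig2 and Ermn were not well above background. The part of meningeal or oligodendrocyte RNA in the Ptgds values was not tested.

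For Ptgis, 4 of 10 endothelial markers could be tested, and Pecam1, Cldn5, Tek, Flt1, Esam and Emcn were not well above background in all arrays of any RNA. Kdr was called higher in CC-CJ versus AA-CJ (2.62, adjusted p = 0.000131) and higher in CC than in AA-CJ (2.67, adjusted p = 0.000166). No endothelial marker was called in CC-CJ versus CC (0 unadjusted). The summed signal was 429 to 465 in AA-CJ, 944 to 1040 in CC-CJ and 1010 to 1030 in CC. Of the 4 markers only Kdr was called. Slco1a4 was 0.27 in CC-CJ versus AA-CJ (adjusted p = 0.166), and Cdh5 and Vwf were not well above background on all arrays of CC-CJ. The part of endothelial RNA in the Ptgis values was not tested.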

How the data were processed

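RNA of 3 kinds was compared on 4 rat arrays with 2 colours, all on 1 slide with 1 scan. For each array the authors deposited spot intensities (mean signal and median local background in both channels) from Feature Extraction 9.5.1.1, 0 or 1 marks for spots, and Agilent's log10 ratio of Cy5 over Cy3. A deposited table holds the authors' log2 ratios of Cy5 over Cy3, for which the study names OLIN and OSLIN. Per array, these correlated with the M values used here at 0.9 to 0.952 across probes, which are not independent replicates. Agilent's and the authors' ratios were turned to Cy3 over Cy5 and used as alternatives.

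In R 4.3.3 with limma 3.58.1, intensities were corrected by normexp (offset 50), and M was normalized by loess within each array (span 0.3). Control spots and 121 to 179 outlier spots per array were left out, and 0 to 4 spots per channel were saturated. Spots of a probe were averaged, and a gene was the mean of its kept probes. A probe was kept if 1 RNA or more had it well above background, in at least 50% of its spots, on all of its arrays. Levels per channel are log2 signals after loess and Aquantile. Probes were named through their RefSeq accession (10835 of 16321 matched), otherwise by the array's symbol. Probe positions are the array's, on rn4. lmFit gave each kind of array its coefficient, with 2 residual degrees of freedom and a prior of 4.71 from eBayes. Adjusted p-values are Benjamini-Hochberg over 21361 genes. The number of arrays limits the precision, since each comparison rests on 2.

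The members and lists were chosen with earlier results of these data known. The text names the 8 members, pathway genes past an adjusted p of 0.05 with 1 or 2 others of each list, marker genes, and the 5 genes closest to Ptgs1; further pathway and marker genes were named after their values were seen. The fit was tested on simulated data. Alternatives were other background corrections, centring, ratios, filters, spreads, blocks and left-out arrays. Figures were drawn with matplotlib 3.10.9.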

Additional observations from a re-analysis of the deposited data

How the results depend on the processing

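For CC-CJ versus AA-CJ, 662 genes were called as reported. The number was 336 with a normexp offset of 16, 13234 with median centring, 77 with Agilent's log ratio, 1121 with only the 2 arrays of the comparison, 66 with an intensity trend and a robust prior in eBayes together, and 108 to 1121 when an array was left out. For CC-CJ versus CC, the number was 504 as reported, 14330 with median centring, 274 with Agilent's log ratio, 290 among probes well above background everywhere, 333 with the trend and robust prior, and 204 to 682 without an array. For CC versus AA-CJ, it was 568 as reported, 250 with Agilent's log ratio, 348 among probes well above background everywhere and 352 to 651 without an array. The causes were not tested, except that fewer genes were tested among probes well above background everywhere.

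Median centring, which removes no trend with intensity, moved the median of all genes to -0.48 against AA-CJ and -0.59 against CC. With it Ptgs1 was -0.62 and -0.41, and 11 and 10 of the 16 pathway genes were called. Of all 21361 genes, 13234 and 14330 were called. Cbr1 was -0.81 and -1.05, Lta4h and Mgll were -1.03 and -0.39 against AA-CJ, and Ptgr2 was -0.66 against CC, all with the opposite sign, on the scale where that median had moved too. Ptgs1 against AA-CJ was 0.47 with an offset of 16 and 0.48 with Agilent's log ratio. Leaving out an array gave 0.40 to 0.45 for Ptgs1 against AA-CJ, 0.52 to 0.74 against CC and -0.32 to -0.09 for CC versus AA-CJ. Signs of genes called under neither setting were not counted as turned.

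The 1 pathway gene called in CC versus AA-CJ, Mgll, became 0 without background subtraction, with an offset of 16, with median centring, with Agilent's log ratio, among probes well above background everywhere, with the replicate block, and in 3 of the 4 fits without an array (0 to 1).

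Whether arrays of the same replicate number shared CC-CJ RNA is not known. The deviations of M of same-numbered arrays correlated at -0.112, but M also carries the Cy5 RNA, which differed between them. The levels of CC-CJ itself were more alike between arrays of the same number. With the replicate number as a block, 170, 306 and 294 genes were called, and of the members only Ptgds. A crossed pairing as a block, added after seeing the data, called 1492, 849 and 828 genes.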
